A study of Mus with 18 samples.

Results

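PGC-1 coactivators, ERR receptors and PPAR receptors are nuclear regulators of oxidative metabolism, and the 10 genes Ppargc1a, Ppargc1b, Esrra, Esrrb, Esrrg, Ppara, Ppard, Pparg, Nrf1 and Tfam were taken by symbol from 2 deposited mouse RNA-seq tables. All 10 were found among 21401 gene symbols in each table, of which 21376 were in both. Of these, 8 were above 0 in at least 1 C2C12 library, and 9 in at least 1 muscle library. Those with a mean of over 1 FPKM (fragments scaled to transcript length and library size) over the 9 libraries of a table entered the tests, which left 5 in each.

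The study examined moringa isothiocyanate-1 (MIC-1), a compound from the moringa tree, in inflammation caused by lipopolysaccharide (LPS), a component of the bacterial outer membrane. Each experiment had 3 groups of 3 libraries, 18 libraries in all, from wild type material. In the cell experiment, labelled C2C12 (a mouse myoblast line), the groups were a saline vehicle control, LPS at 1 µg/mL, and LPS at 1 µg/mL with MIC-1 at 10 µM for 24 h. The labels give that MIC-1 concentration, whereas the text of the study names a lower one for the sequenced cells, so the dose is uncertain. The vehicle is uncertain too, since the labels name saline and the methods of the study name ethanol for the cells. In the animal experiment, gastrocnemius muscle came from male C57BL/6 mice that were given vehicle, LPS (10 mg/kg, injected intraperitoneally 16 h before collection), or the same LPS after MIC-1 (80 mg/kg in 10% DMSO by gavage, daily for 3 days). The age of the mice was not given in the sources used here. The labels do not say whether the libraries of a group came from separate cultures or animals, so the p-values measure only the spread between these libraries.

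In oxidative tissues such as skeletal muscle, PGC-1 coactivators do not bind DNA themselves but are recruited by transcription factors, among them the estrogen-related receptors (ERR), the peroxisome proliferator-activated receptors (PPAR) and nuclear respiratory factor 1 (NRF1). Together these factors switch on genes of the respiratory chain, the citric acid cycle and fatty acid oxidation, as well as Tfam, whose product packages mitochondrial DNA and drives its transcription. In muscle the pathway is best known for its response to exercise and fasting, and PPAR receptors are activated by fatty acids.

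The cell type markers did not match the label in 2 of the 3 C2C12 groups. The summed level of 12 macrophage markers was 8890 to 8964 FPKM in the libraries labelled control and 6229 to 6399 FPKM in those labelled LPS, and it was 246, 77.8 and 90.7 FPKM in the 3 LPS-MIC-1 libraries. The 8 myoblast markers summed to 0.136 to 0.408 FPKM in control, with 3 of the 8 listed at 0 in every control library, to 0.301 to 2.43 FPKM in LPS, and to 841 to 1096 FPKM in LPS-MIC-1. Lyz2, the lysozyme of macrophages, averaged 4694 ± 85.5 FPKM in control (SD, n = 3), and Des, the muscle intermediate filament desmin, averaged 398 ± 78.7 FPKM in LPS-MIC-1 against 0.126 ± 0.135 in control. In the C2C12 experiment, therefore, every comparison with LPS-MIC-1 set libraries with muscle markers against libraries with macrophage markers, and treatment and cell identity cannot be told apart there. The comparison of LPS with control set macrophage-marker libraries against each other.

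Muscle libraries all carried muscle markers, with 10 fast fibre markers summing to 201076 to 206712 FPKM in control, 188758 to 190658 with LPS and 152416 to 164588 in LPS-MIC-1. Several marker lists nevertheless differed between groups. The 5 endothelial markers summed to 59.7 to 62.2 FPKM in control, 35.4 to 36.5 with LPS and 59.5 to 68.6 in LPS-MIC-1. Other lists moved with LPS-MIC-1. The 6 slow fibre markers summed to 19.6 to 21.6 FPKM in control, 16.4 to 18.6 with LPS and 161 to 175 in LPS-MIC-1, and 4 neutrophil markers to 1.79 to 2.88, 1.65 to 2.06 and 8.85 to 16.2 FPKM. The neutrophil markers did not move together. S100a8 was 0, 0 and 0.357 FPKM in control, 0.739, 0 and 0.733 with LPS and 7.25, 7.47 and 7.41 in LPS-MIC-1. Cxcr2 averaged 1.58 ± 0.358, 1.17 ± 0.141 and 1.44 ± 0.336 FPKM in the same groups. The macrophage list summed to 24.9 to 29.5 FPKM in control, 33.5 to 34.1 with LPS and 38.5, 37.7 and 179 in LPS-MIC-1, so replicate 3 stood apart. Lcn2, an acute-phase gene of bacterial inflammation looked at after its values were seen, was 0.516 ± 0.444 FPKM in control, 0.972 ± 0.552 with LPS and 1248 ± 79.1 in LPS-MIC-1. Saa3, another acute-phase gene looked at after its values were seen, was listed at 0 in all 3 control libraries and was 0.877, 1.33 and 0.871 FPKM with LPS and 547, 489 and 496 in LPS-MIC-1. Il1b and Tnf, also looked at after their values were seen, were low. Il1b averaged 0.0634 ± 0.000327, 0.0640 ± 0.000399 and 0.302 ± 0.114 FPKM in control, LPS and LPS-MIC-1. Tnf was 0, 0 and 0.252 FPKM in control, 0, 0 and 0.151 with LPS and 0.840, 0.571 and 1.49 in LPS-MIC-1. For all of these genes the muscle libraries labelled LPS lay near those labelled control, and LPS-MIC-1 was highest. In muscle LPS-MIC-1 against LPS, therefore, MIC-1 and the level of these inflammatory genes cannot be told apart. The part of these marker differences in the results below was not tested, and in bulk tissue fewer cells of a type and less RNA per cell cannot be told apart.

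**Figure D1:**
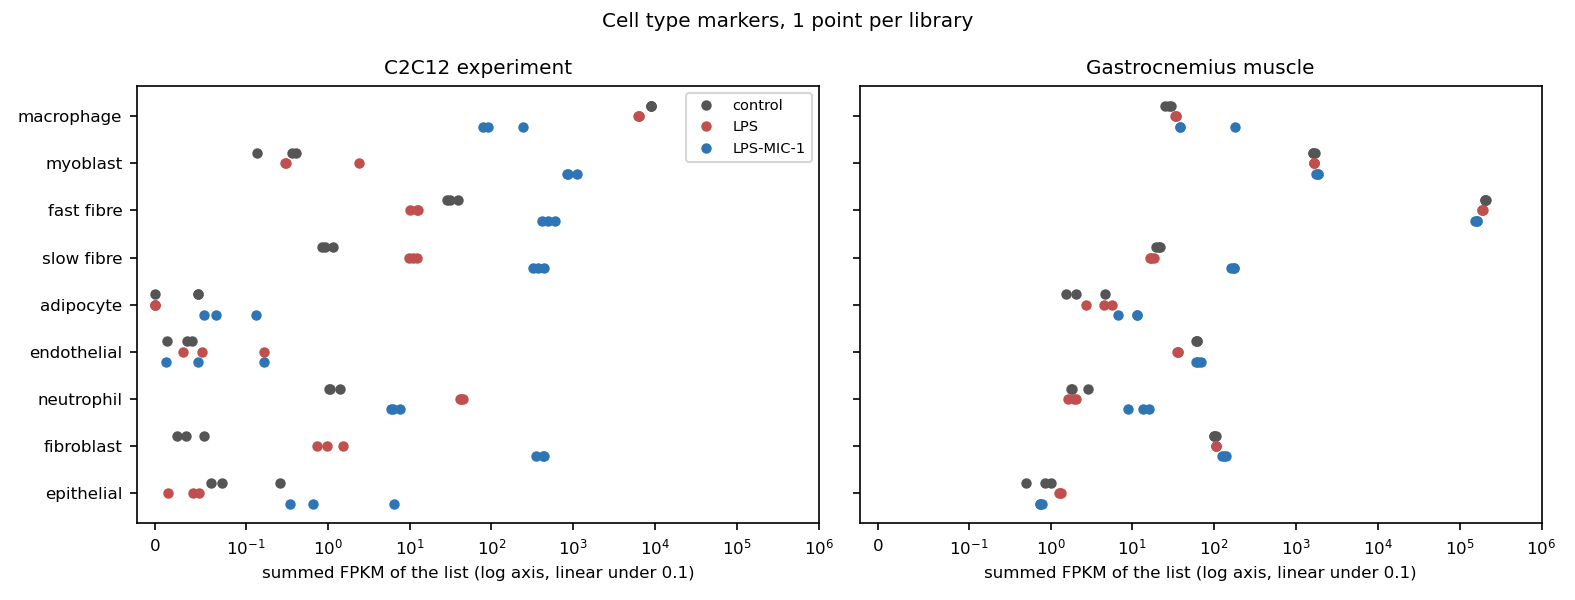
Summed FPKM of each cell type marker list (log axis, linear under 0.1), with 1 point per library, for the C2C12 experiment (left) and muscle (right). In the C2C12 experiment the macrophage sums of control and LPS lie at 6229 FPKM or more and their myoblast sums at 2.43 FPKM or less, and LPS-MIC-1 is reversed, whereas all muscle libraries share the fast fibre signal.

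Ppard rose with LPS in the C2C12 libraries, and in muscle Ppara rose and Ppargc1a fell in the LPS-MIC-1 libraries against those labelled LPS. A gene was called where the log2 fold change exceeded 1 in size and limma's Benjamini-Hochberg adjusted p was under 0.001 in C2C12 or under 0.05 in muscle, thresholds taken from the study. With LPS against control, 1 of the 5 tested regulators was called in C2C12 against 20.9% of all 10877 genes tested, and 0 of 5 were called by limma in muscle against 1.25% of 9475 genes. With LPS-MIC-1 against LPS, 0 of 5 were called by limma in C2C12 against 49.9% of all genes, and 2 of 5 in muscle against 15.1%. With LPS-MIC-1 against control, limma called 0 of 5 in C2C12 against 43.3% and 1 of 5 in muscle against 15.5%. Ppara is 1 of the 2 and the only 1 against control, and it passed the filter on mean FPKM only through LPS-MIC-1, so it had to differ and these muscle counts are no support for a share above that of all genes. In the 3 comparisons without a call, limma's unadjusted p was under 0.05 for 1 of 5 in muscle with LPS (29.6% of all genes), for 5 of 5 in C2C12 with LPS-MIC-1 against LPS (85.2%) and for 3 of 5 in C2C12 against control (82.2%). The smallest 2-sided p that an exact permutation test can give for 3 against 3 libraries is 0.1, so single genes were tested only in the fit across all genes. The comparisons within an experiment share libraries and are not independent of each other.

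At the adjusted p alone, with no limit on fold, more regulators passed. In C2C12 these were 2 of 5 for LPS against control (37.8% of all genes), 2 of 5 for LPS-MIC-1 against LPS (66.5%) and 3 of 5 for LPS-MIC-1 against control (60.5%). In muscle they were 0 of 5 (15.7%), 3 of 5 (56.5%) and 4 of 5 (58.5%). Groups did not overlap for 3, 5 and 3 of the 5 regulators in the C2C12 comparisons, where 79.4%, 85.5% and 83.0% of all genes did not overlap, and for 2, 3 and 2 of 5 in muscle, where 36.5%, 64.2% and 64.6% did not. With 5 regulators tested in each experiment, none of these counts is read as differing from the share of all genes.

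**Figure D2:**
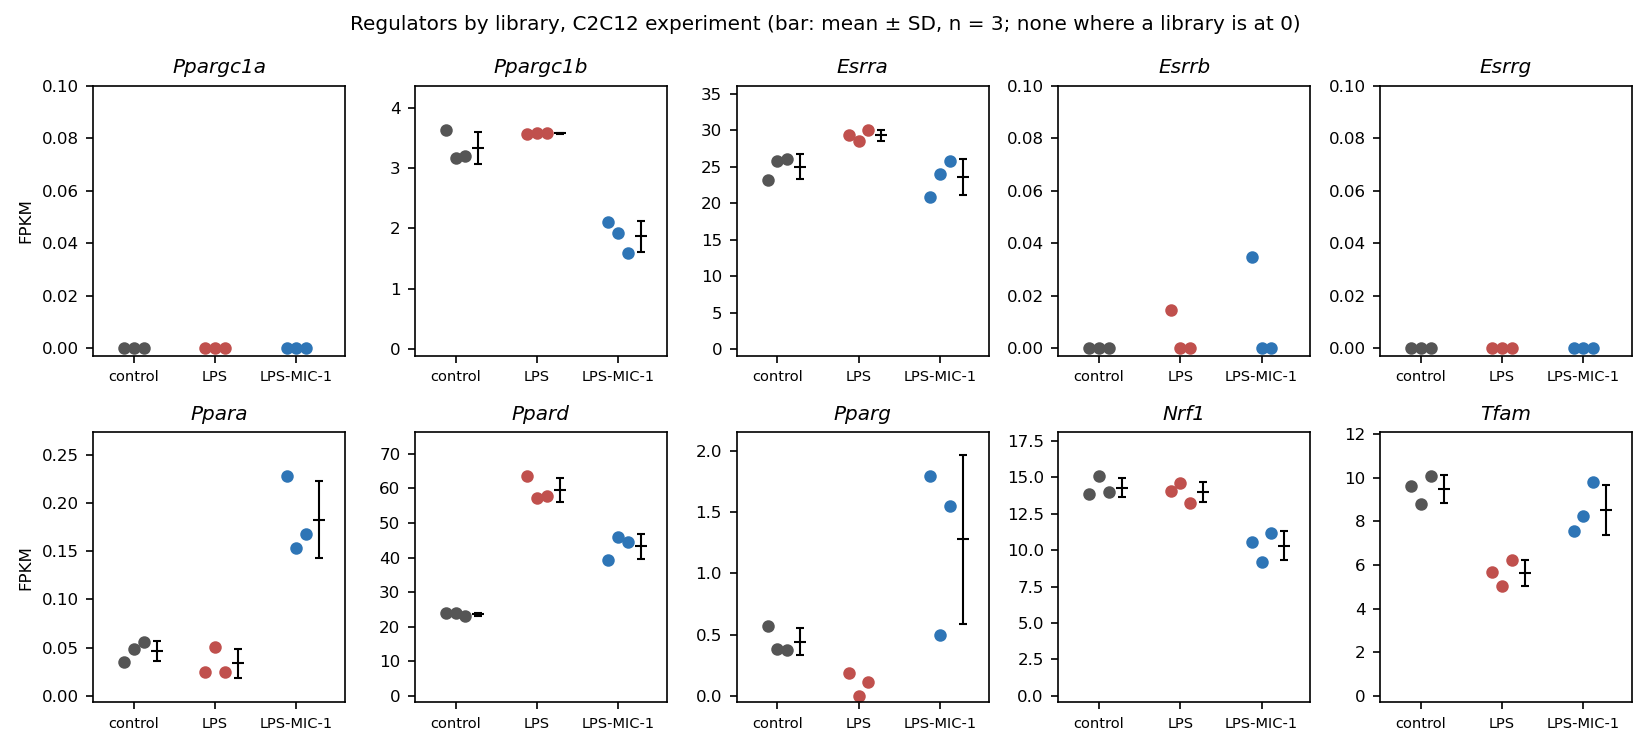
FPKM of the 10 regulators in each C2C12 library, grouped as control, LPS and LPS-MIC-1, with the mean and SD (n = 3) drawn beside each group that has no library at 0, and a separate vertical axis for each gene. Ppard is highest with LPS and lowest in control, Ppargc1b and Nrf1 are lowest in LPS-MIC-1, and Ppargc1a and Esrrg are at 0 in all 9 libraries.

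Of the coactivators, only Ppargc1b reached the tests in C2C12 and only Ppargc1a in muscle. Ppargc1a encodes PGC-1α, the form induced in muscle by exercise, fasting and cold. It was listed at 0 in all 9 C2C12 libraries. In muscle it was 1.96, 2.70 and 3.86 FPKM in the control libraries, 3.76, 3.86 and 4.19 in the LPS libraries and 1.16, 1.80 and 2.07 in the LPS-MIC-1 libraries. LPS-MIC-1 lay entirely below LPS, while control spanned most of the distance between them and overlapped both.

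Ppargc1a fell in muscle with LPS-MIC-1 against LPS, from 3.94 ± 0.224 to 1.68 ± 0.468 FPKM (SD, n = 3), with a log2 fold change of -1.22 (SE 0.265, limma adjusted p = 0.00442), or 2.35-fold on the group means. The call rests on fold size, since without LPS-MIC-1 replicate 1 the log2 fold change was -0.99 (adjusted p = 0.0130) and without replicate 3, the library with the most macrophage RNA, it was -1.38 (adjusted p = 0.00520). Against control the log2 fold change was -0.71 (SE 0.265, limma adjusted p = 0.0467), the groups overlapped, and only 7 of 17 alternative settings kept the adjusted p under the threshold. It was lost without control replicate 2 or 3, LPS-MIC-1 replicate 1 or 2, or any LPS library, with adjusted p up to 0.144, and also with no filter, no variance trend or only the 6 libraries compared (adjusted p = 0.0646, 0.0548 and 0.0922). LPS against control gave 0.51 (95% interval -0.10 to 1.12, limma adjusted p = 0.245), an interval that holds both no difference and a rise past the fold threshold. Transcripts with the most similar profile over the 9 muscle libraries, by Pearson correlation as a description, were Exosc1 (r = 0.959), an exosome subunit, and Hn1 (r = 0.952).

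Ppargc1b encodes PGC-1β, the related coactivator that is present in many cell types and is less bound to acute stimuli. In C2C12 it was 3.63, 3.17 and 3.20 FPKM in control, 3.56, 3.57 and 3.58 with LPS and 2.10, 1.92 and 1.60 in LPS-MIC-1. Control and LPS overlapped, and all 3 LPS-MIC-1 libraries were below them. The log2 fold change of LPS-MIC-1 against LPS was -0.90 (SE 0.123, limma adjusted p = 0.000161), under the fold threshold, and against control it was -0.80 (SE 0.123, limma adjusted p = 0.000371). The first passed the adjusted p in 14 of 17 alternatives and was lost without LPS replicate 1 or 2 (adjusted p = 0.00101 and 0.00104) and with only the 6 libraries compared in the fit (0.00139). The second passed in 8 of 17, and its adjusted p reached 0.00304, with only the 6 libraries compared. It was also lost without any control library (adjusted p up to 0.00229), any LPS library or LPS-MIC-1 replicate 2, and with the replicate number as a block (adjusted p = 0.00118).

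In muscle Ppargc1b was near the floor and uneven within groups. It was 1.06, 1.49 and 0 FPKM in control, 0.131, 0 and 0.594 with LPS and 0, 0 and 0.124 in LPS-MIC-1. All 3 groups overlapped, and the gene did not reach a mean of 1 FPKM. Fitted without that filter, none of the 3 muscle comparisons passed (limma adjusted p = 0.164 to 0.608).

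**Figure D3:**
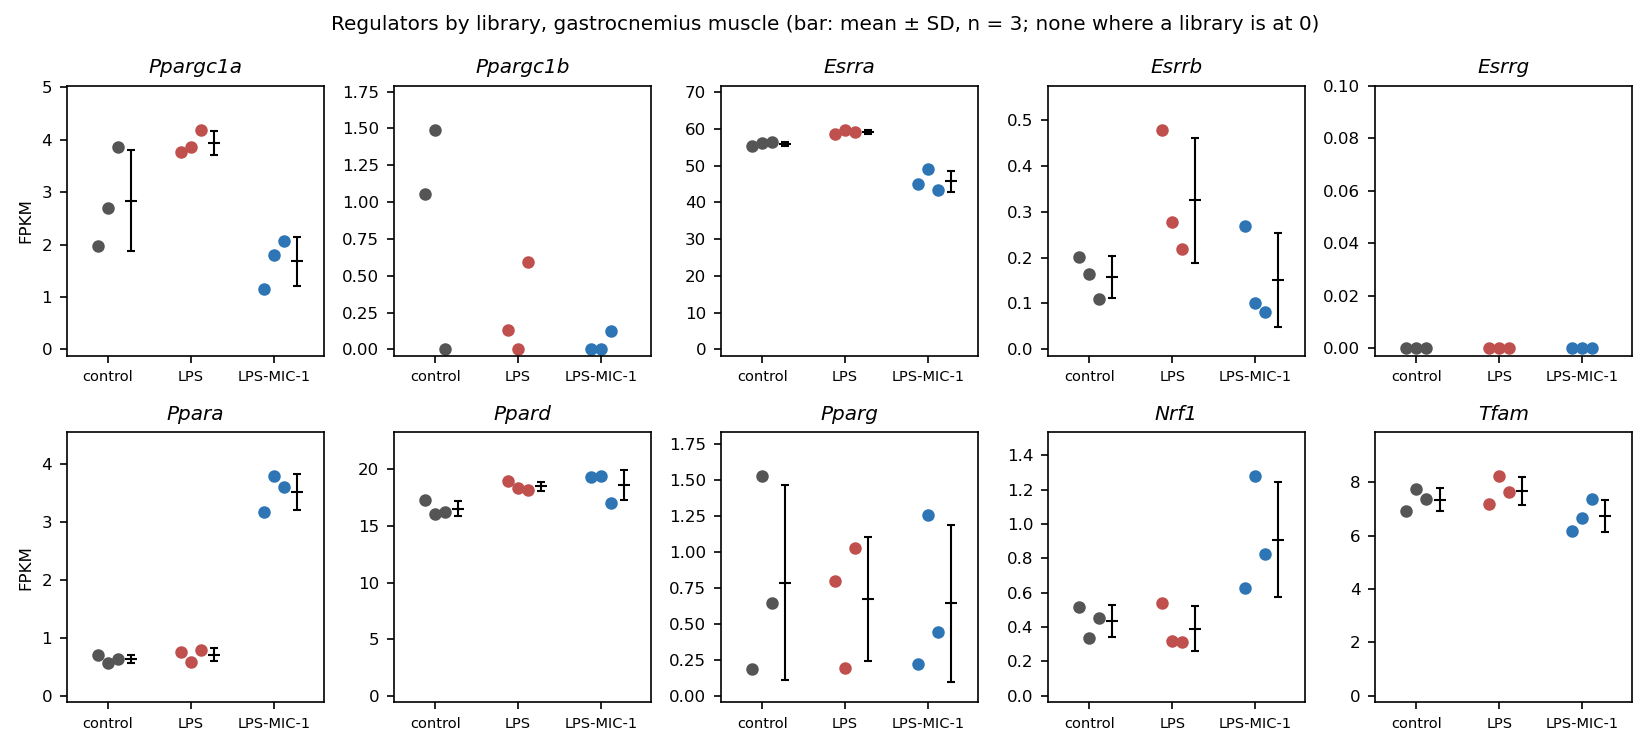
FPKM of the 10 regulators in each gastrocnemius library, grouped as control, LPS and LPS-MIC-1, with the mean and SD (n = 3) drawn beside each group that has no library at 0, and a separate vertical axis for each gene. Ppara stands at 3.17 to 3.78 FPKM in LPS-MIC-1 against 0.571 to 0.794 in the other groups, and Esrra and Ppargc1a are lowest in LPS-MIC-1.

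Among the ERR receptors, which bind DNA without a known natural hormone and carry much of PGC-1 signalling to respiratory genes, only Esrra was present at a level that could be tested. Esrra was the most abundant of the 10 regulators in muscle, where FPKM, a level per transcript length, allows genes to be compared. It was 55.4, 56.1 and 56.5 FPKM in muscle control, 58.6, 59.8 and 59.2 with LPS and 44.9, 49.0 and 43.5 in LPS-MIC-1. The 3 groups did not overlap, with LPS highest and LPS-MIC-1 lowest.

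Esrra fell in muscle with LPS-MIC-1, by -0.37 on the log2 scale against LPS (SE 0.0444, limma adjusted p = 0.000155) and -0.29 against control (SE 0.0444, limma adjusted p = 0.000616). Both are under the fold threshold, and both passed the adjusted p in 18 of 18 alternatives. LPS against control gave 0.08 (SE 0.0444, limma adjusted p = 0.277). Without LPS-MIC-1 replicate 3 the values were -0.33 and -0.26 (adjusted p = 0.000463 and 0.00172).

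In C2C12 Esrra was 23.2, 25.9 and 26.1 FPKM in control, 29.4, 28.5 and 30.1 with LPS and 20.9, 24.1 and 25.8 in LPS-MIC-1. LPS lay above both other groups, which overlapped each other. None of the C2C12 comparisons of Esrra passed 0.001, with log2 fold changes of 0.23 for LPS against control (SE 0.0850, limma adjusted p = 0.0450), -0.32 for LPS-MIC-1 against LPS (SE 0.0850, limma adjusted p = 0.00772) and -0.09 for LPS-MIC-1 against control (SE 0.0850, limma adjusted p = 0.350).

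Esrrb, best known from pluripotent cells, was listed at 0 in 7 of 9 C2C12 libraries and at 0.0143 and 0.0346 FPKM in the others. In muscle it was 0.201, 0.163 and 0.110 FPKM in control, 0.479, 0.277 and 0.219 with LPS and 0.269, 0.101 and 0.0822 in LPS-MIC-1. Its level stayed under 0.5 FPKM throughout, and none of its muscle comparisons passed when the filter was lifted (limma adjusted p = 0.107 to 0.849). Esrrg, the receptor associated with slow, oxidative fibres, was listed at 0 in all 18 libraries. An exact 0 here can be a failed estimate. In each muscle group 113 to 129 genes were at 0 in 1 library and over 1 FPKM in the other 2. Esrrg, at 0 in every library, is unlike those genes, and the authors' mean normalized count was 0 for it too. Its 0 is still given as a listed value and not as a measured absence, as is the 0 of Ppargc1a in C2C12.

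The PPAR receptors diverged from each other. Ppara encodes PPARα, which drives fatty acid oxidation and is the fasting receptor of liver and muscle. In muscle it was 0.709, 0.571 and 0.641 FPKM in control, 0.747, 0.580 and 0.794 with LPS and 3.17, 3.78 and 3.60 in LPS-MIC-1. Control and LPS overlapped, and every LPS-MIC-1 library was at least 3.17 FPKM.

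Ppara rose in muscle with LPS-MIC-1, from 0.707 ± 0.112 to 3.52 ± 0.314 FPKM (SD, n = 3) against LPS, with a log2 fold change of 2.17 (SE 0.178, limma adjusted p = 1.62e-05) or 4.97-fold on the means. Against control, at 0.641 ± 0.0691 FPKM, the log2 fold change was 2.29 (SE 0.178, limma adjusted p = 1.10e-05), or 5.49-fold. The gene passed the filter on mean FPKM only through the LPS-MIC-1 group, so among genes kept by that filter it had to differ. Both calls held in 17 of 17 alternatives. All of these but the fit with no filter kept genes by the same rule, so that count adds no support. Without LPS-MIC-1 replicate 3 the log2 fold changes were 2.15 and 2.27. LPS against control gave 0.12 (SE 0.178, limma adjusted p = 0.709). The muscle transcripts closest in profile over 9 libraries were Aff1 (r = 0.996), a component of transcription elongation complexes, at 3.67, 3.89 and 18.8 FPKM on average in control, LPS and LPS-MIC-1, and Xdh (r = 0.996), xanthine dehydrogenase, at 4.52, 4.71 and 10.6 FPKM.

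In C2C12 Ppara was low throughout. It was 0.0354, 0.0490 and 0.0554 FPKM in control, 0.0252, 0.0504 and 0.0250 with LPS and 0.227, 0.153 and 0.168 in LPS-MIC-1. The authors' mean normalized count of the gene was only 5.23 to 13.2 over the 6 libraries of a comparison. Without the filter, LPS-MIC-1 against LPS gave 1.08 (SE 0.148, limma adjusted p = 0.000188), past both thresholds, and LPS-MIC-1 against control 0.94 (SE 0.148, limma adjusted p = 0.000476), both on the log2 scale with 0.1 added to FPKM, which understates changes at such levels.

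Ppard encodes PPARδ, the most widely present PPAR and the main one of muscle fibres and macrophages. In C2C12 it was 23.9, 23.9 and 23.1 FPKM in control, 63.5, 57.2 and 57.9 with LPS and 39.2, 46.0 and 44.5 in LPS-MIC-1. No 2 of these groups overlapped.

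Ppard rose with LPS in C2C12, from 23.6 ± 0.435 to 59.5 ± 3.43 FPKM (SD, n = 3), with a log2 fold change of 1.33 (SE 0.0689, 95% interval 1.17 to 1.49, limma adjusted p = 1.35e-06) or 2.52-fold on the means, and the call held in 18 of 18 alternatives. It was the only regulator called with LPS, in libraries with macrophage markers in both groups. LPS-MIC-1, at 43.2 ± 3.53 FPKM, was below LPS by -0.46 on the log2 scale (SE 0.0689, limma adjusted p = 0.000280) and above control by 0.87 (SE 0.0689, limma adjusted p = 6.07e-06), both under the fold threshold. The first passed the adjusted p in 14 of 18 alternatives, being lost without LPS replicate 1 or 3 (adjusted p = 0.00141 and 0.00116), with only the 6 libraries compared in the fit (0.00231) and with the replicate number as a block (0.00183), and the second passed in 18 of 18. The closest C2C12 profiles over 9 libraries were those of Creld1 (r = 0.999) and Grina (r = 0.996), which averaged 75.8, 456 and 255 FPKM in control, LPS and LPS-MIC-1.

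In muscle Ppard varied little. It was 17.2, 16.1 and 16.2 FPKM in control, 18.9, 18.3 and 18.2 with LPS and 19.4, 19.4 and 17.0 in LPS-MIC-1. LPS lay above control, and LPS-MIC-1 overlapped both. The difference of LPS-MIC-1 from LPS was 0.00 on the log2 scale (95% interval -0.13 to 0.14, limma adjusted p = 0.954), an interval that leaves out the fold threshold of 1 in both directions. LPS against control gave 0.16 (SE 0.0596, limma adjusted p = 0.107), and LPS-MIC-1 against control 0.17 (SE 0.0596, limma adjusted p = 0.0395), which passed in only 8 of 18 alternatives and was 0.02 after quantile normalization (adjusted p = 0.755). Any single library other than control replicate 1 or LPS-MIC-1 replicate 3 was enough to lose it when left out, with adjusted p up to 0.119, as were a fit with no variance trend or of only the 6 libraries compared (adjusted p = 0.0540 and 0.0798).

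Pparg encodes PPARγ, the regulator of adipocyte formation. In C2C12 it was 0.568, 0.382 and 0.377 FPKM in control, 0.183, 0 and 0.112 with LPS and 1.79, 0.494 and 1.55 in LPS-MIC-1, so LPS was lowest and LPS-MIC-1 overlapped control. Without the filter the log2 fold changes were -1.56 for LPS against control (SE 0.521, limma adjusted p = 0.0373) and 2.76 for LPS-MIC-1 against LPS (SE 0.521, limma adjusted p = 0.00133), neither past 0.001. Adipocyte markers did not exceed a sum of 0.134 FPKM in any C2C12 library. In muscle Pparg was 0.190, 1.52 and 0.648 FPKM in control, 0.797, 0.192 and 1.02 with LPS and 0.224, 1.26 and 0.443 in LPS-MIC-1, and the libraries of each group spread over the same range. The 6 adipocyte markers summed to 1.55 to 4.60, 2.70 to 5.69 and 6.67 to 11.3 FPKM in the same groups. Most of that sum in LPS-MIC-1 was Cfd, which averaged 2.15 ± 1.70, 3.61 ± 1.72 and 8.43 ± 2.26 FPKM, while Adipoq averaged 0.400 ± 0.356, 0.451 ± 0.219 and 0.689 ± 0.0678.

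The remaining factors act on the mitochondrion itself. Nrf1 encodes a transcription factor of respiratory chain genes. In C2C12 it was 13.8, 15.1 and 14.0 FPKM in control, 14.1, 14.6 and 13.3 with LPS and 10.6, 9.20 and 11.2 in LPS-MIC-1. Control and LPS overlapped, with a log2 fold change of -0.03 (SE 0.0847, limma adjusted p = 0.767), and LPS-MIC-1 lay below them. LPS-MIC-1 against LPS gave -0.44 (SE 0.0847, limma adjusted p = 0.00133), which missed the threshold, and against control -0.47 (SE 0.0847, limma adjusted p = 0.000950), which passed it narrowly and in only 5 of 18 alternatives. It was lost without any single library but LPS-MIC-1 replicate 3, with adjusted p up to 0.00525, and with no filter, quantile normalization, no variance trend, only the 6 libraries compared or the replicate number as a block (adjusted p = 0.00101, 0.00664, 0.00120, 0.00452 and 0.00485).

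In muscle Nrf1 was low, at 0.519, 0.337 and 0.452 FPKM in control, 0.540, 0.322 and 0.312 with LPS and 0.629, 1.28 and 0.823 in LPS-MIC-1. The LPS-MIC-1 libraries were above all others. The gene did not reach a mean of 1 FPKM, and the authors' mean normalized count was 22.7 and 23.1 over the libraries of the available comparisons. Without the filter the log2 fold change was 1.02 against LPS (SE 0.303, limma adjusted p = 0.0276), past both thresholds, and 0.88 against control (SE 0.303, limma adjusted p = 0.0477), in the direction opposite to C2C12, a difference between the experiments that was not tested.

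Tfam encodes the mitochondrial DNA-packaging transcription factor. In C2C12 it was 9.59, 8.77 and 10.1 FPKM in control, 5.65, 5.04 and 6.22 with LPS and 7.54, 8.25 and 9.78 in LPS-MIC-1. LPS lay below both other groups, and these overlapped. Tfam fell with LPS by 0.74 on the log2 scale (SE 0.122, limma adjusted p = 0.000874), 1.68-fold on the means and under the fold threshold. It passed the adjusted p in 10 of 18 alternatives and lost it when any 1 control or LPS library or LPS-MIC-1 replicate 2 was left out, with log2 fold changes from -0.81 to -0.66 and adjusted p up to 0.00494, and with no filter (adjusted p = 0.00106). LPS-MIC-1 was 0.58 above LPS (SE 0.122, limma adjusted p = 0.00207) and differed from control by -0.16 (SE 0.122, limma adjusted p = 0.262), neither past 0.001.

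In muscle Tfam was 6.90, 7.75 and 7.39 FPKM in control, 7.18, 8.22 and 7.64 with LPS and 6.19, 6.67 and 7.37 in LPS-MIC-1, and all groups overlapped. Log2 fold changes were 0.06 for LPS against control, -0.19 for LPS-MIC-1 against LPS and -0.12 for LPS-MIC-1 against control (SE 0.0841 for each, limma adjusted p = 0.673, 0.0910 and 0.239). The second passed without LPS-MIC-1 replicate 3 (-0.25, adjusted p = 0.0383).

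**Figure D4:**
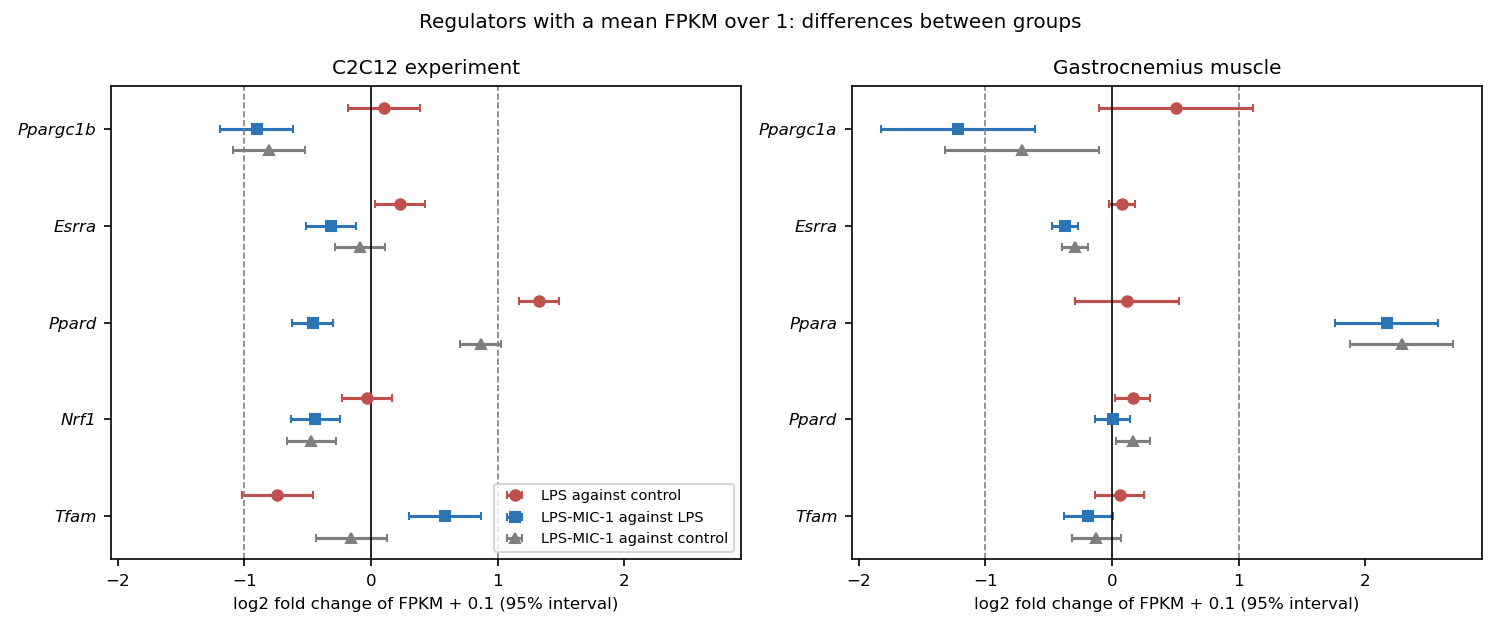
Log2 fold changes of FPKM + 0.1 with 95% intervals from limma for the 5 regulators tested in C2C12 (left) and the 5 tested in muscle (right), in 3 comparisons per experiment, with dashed lines at the fold threshold of 1. Ppard with LPS in C2C12 and Ppara with LPS-MIC-1 in muscle lie beyond the lines with their whole intervals, and Ppargc1a with LPS-MIC-1 against LPS in muscle lies beyond at -1.22 with an interval that crosses the line.

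The genes around these regulators were followed in 4 lists, which were drawn up with earlier results of these data known. Of the 18 oxidative targets, enzymes and carriers of the citric acid cycle, the respiratory chain and oxygen storage, 12 rose and 0 fell at the adjusted p in muscle with LPS against control, where 8.25% of all genes rose and 7.48% fell (median log2 fold change 0.19, against 0.01 over all genes). None of the 18 was called with the fold threshold, where 1.25% of all genes were called. With LPS-MIC-1 against LPS in muscle, 16 of the 18 fell and 0 rose, where 28.2% of all genes fell and 28.3% rose (median -0.35, against -0.01). With the fold threshold 1 of the 18 was called, where 15.1% of all genes were called. With LPS-MIC-1 against control 11 fell and 3 rose, where 28.5% of all genes fell and 30.0% rose (median -0.21, against 0.01). The counts of 16 and 11 were 16 and 11 without LPS-MIC-1 replicate 3 too. In the LPS-MIC-1 libraries the slow fibre and neutrophil sums given above were highest, and their part in this was not tested. The endothelial sum was lowest in the LPS libraries, and its part in the differences from LPS was not tested either.

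Within that list Ckmt2, the mitochondrial creatine kinase, was the gene called, and averaged 784 ± 22.7, 1243 ± 9.51 and 602 ± 26.3 FPKM in control, LPS and LPS-MIC-1 (LPS-MIC-1 against LPS -1.05, SE 0.0359, limma adjusted p = 8.96e-08). Slc25a4, the heart and muscle ADP/ATP carrier, averaged 3236 ± 96.0, 3692 ± 86.7 and 2319 ± 68.1 FPKM. Mb, which encodes myoglobin, averaged 772 ± 34.2, 1413 ± 36.2 and 1175 ± 66.1 FPKM and had the largest difference of the list for LPS against control, at 0.87 (SE 0.0476, limma adjusted p = 1.84e-05).

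PPAR targets in muscle moved both ways with LPS-MIC-1. Of 22 tested with LPS-MIC-1 against LPS, 11 rose and 7 fell (median 0.26, against -0.01 over all genes), where 28.3% of all genes rose and 28.2% fell. Against control 14 rose and 1 fell (median 0.38, against 0.01), where 30.0% of all genes rose and 28.5% fell. The same 6 genes were called higher in both comparisons, namely Pdk4, Angptl4, Ucp2, Ucp3, Plin2 and Acot2, and 0 were called lower, where 15.1% and 15.5% of all genes were called in either direction. Angptl4 passed the filter on mean FPKM only through LPS-MIC-1, so it had to differ, and the count of 6 is no support in its case. With LPS against control 11 rose and 2 fell, where 8.25% of all genes rose and 7.48% fell, with 0 called by limma against 1.25% of all genes called.

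Pdk4, the kinase that turns off pyruvate dehydrogenase and spares glucose, averaged 34.8 ± 0.990, 25.8 ± 1.12 and 1070 ± 22.8 FPKM in control, LPS and LPS-MIC-1 (LPS-MIC-1 against LPS 5.37, SE 0.0395, limma adjusted p = 2.47e-11). Angptl4, the secreted inhibitor of lipoprotein lipase, averaged 0.864 ± 0.255, 0.672 ± 0.0637 and 35.5 ± 1.15 FPKM (5.53, SE 0.175, limma adjusted p = 5.58e-08). The mitochondrial carriers Ucp2 and Ucp3 rose by 3.24 and 3.32 on the log2 scale, the thioesterase Acot2, whose reads may be shared with its close copy Acot1, by 2.64, and the lipid droplet coat gene Plin2 by 1.07. Apart from Fabp3, the genes of this list that fell against LPS were carnitine transferases and enzymes of mitochondrial fatty acid oxidation, from Acaa2 at -0.60 through Cpt2 at -0.32 and Acadm at -0.30 to Acadvl at -0.15, with Cpt1b and Hadhb between them. Acadl, of the same pathway, rose by 0.14. Fabp3, the muscle fatty acid binding protein, averaged 310 ± 18.4, 437 ± 8.28 and 326 ± 9.17 FPKM, with LPS highest.

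Among the 19 partners and regulators tested in muscle, 5 rose and 5 fell with LPS-MIC-1 against LPS, where 28.3% of all genes rose and 28.2% fell, and 2 and 1 of these were called. In this comparison 15.1% of all genes were called in either direction. The 5 that rose became 3 without LPS replicate 1 or 2 or LPS-MIC-1 replicate 1 or 2. Against control 7 rose and 5 fell, where 30.0% of all genes rose and 28.5% fell, and the 7 became 4 without LPS-MIC-1 replicate 1 or 2. The 2 called higher were Lpin1, a phosphatidate phosphatase and PGC-1 partner, at 59.3 ± 0.458, 80.8 ± 1.75 and 181 ± 12.3 FPKM (1.16, SE 0.0475, limma adjusted p = 2.57e-07), and Pprc1, the PGC-1-related coactivator (1.08, SE 0.264, limma adjusted p = 0.00795), and only 1 gene was called higher without LPS replicate 2 or LPS-MIC-1 replicate 1. The gene called lower was 2310042D19Rik, the former symbol of Perm1, a muscle target and regulator of PGC-1 and ERR, at 30.8 ± 0.954, 43.7 ± 0.698 and 18.5 ± 0.711 FPKM (-1.23, SE 0.0418, limma adjusted p = 8.32e-08), and 2 genes were called lower without LPS-MIC-1 replicate 1 or 2 and 3 after quantile normalization. Rxrg, a retinoid receptor partner of the PPARs, fell by 0.97 and Sirt3, the mitochondrial deacetylase, by 0.64. With LPS against control, where 1.25% of all genes were called, Prkaa2, the muscle catalytic subunit of AMP-activated kinase, was called higher (1.56, limma adjusted p = 0.0160), and 0 of the list were without LPS replicate 2 or 3. Sirt1 had the largest difference of the list for that comparison (1.66, SE 0.904, limma adjusted p = 0.265), with 1 control library listed at 0, and did not pass.

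The mitochondrial DNA maintenance list, holds the machinery that works with Tfam. In muscle with LPS against control 0 of 9 passed limma's adjusted p (15.7% of all genes passed), and the unadjusted p was under 0.05 for 2. For LPS-MIC-1 against LPS 1 rose and 3 fell, where 28.3% of all genes rose and 28.2% fell, and with LPS-MIC-1 against control 1 rose and 1 fell, where 30.0% rose and 28.5% fell. The gene that rose against LPS was lost without control replicate 1 or 2, LPS replicate 1 or 2 or LPS-MIC-1 replicate 2. Polg, the mitochondrial DNA polymerase, was 2.17, 1.26 and 3.23 FPKM with LPS and 3.38, 4.38 and 4.08 in LPS-MIC-1 (0.89, SE 0.319, limma adjusted p = 0.0424). Peo1, the helicase now named Twnk, was 2.96, 3.17 and 2.96 FPKM with LPS and 1.44, 1.73 and 2.42 in LPS-MIC-1 (-0.70, SE 0.174, limma adjusted p = 0.00868).

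In C2C12 with LPS against control, 11 of 17 oxidative targets fell and 0 rose, where 19.3% of all genes fell and 18.6% rose (median -0.60, against 0.00 over all genes), with 3 called. In this comparison 20.9% of all genes were called in either direction. The 11 became 6 whenever 1 control library or 1 LPS library was left out. Idh3a, a subunit of isocitrate dehydrogenase, averaged 55.1 ± 1.04 and 21.4 ± 1.10 FPKM in control and LPS (-1.36, SE 0.0874, limma adjusted p = 4.09e-06). Of 20 PPAR targets 4 rose and 7 fell, with 2 and 5 called, among them Fabp4, the fatty acid binding protein of macrophages and adipocytes, which averaged 2.00 ± 0.311 and 69.5 ± 5.73 FPKM (5.06, SE 0.381, limma adjusted p = 9.92e-06). Of 9 mitochondrial DNA maintenance genes 2 rose and 3 fell, with Peo1 called at -1.22 (SE 0.187, limma adjusted p = 0.000598), and without any 1 control or LPS library these were 1 and 1, with 0 called. Of 19 partners 4 rose, and 2310042D19Rik averaged 0.386 ± 0.0293 and 10.1 ± 0.330 FPKM (4.39, SE 0.411, limma adjusted p = 3.40e-05). It passed the filter on mean FPKM only through the LPS group, so it had to differ.

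With LPS-MIC-1 against LPS in C2C12, where the cell markers changed as well, 14 of 19 partners and regulators fell and 1 rose, where 33.7% of all genes fell and 32.8% rose (median -1.76, against -0.05 over all genes), with 12 called lower. In this comparison 49.9% of all genes were called in either direction. Among the 12 is 2310042D19Rik, which passed the filter on mean FPKM only through LPS, so it had to differ and adds no support to these counts. Of 17 oxidative targets 11 rose and 0 fell (median 0.63), with 5 called, and after quantile normalization 11 rose and 3 fell. Mb, 1 of the 5 called, was 0.0671, 0.0755 and 0.0752 FPKM with LPS and 18.4, 22.2 and 15.5 in LPS-MIC-1, the only group through which it passed the filter. It therefore had to differ and adds no support to the counts of oxidative targets. Slc25a4 was 106, 108 and 108 FPKM with LPS and averaged 510 ± 51.4 in LPS-MIC-1. Of 20 PPAR targets 6 rose and 7 fell, with Angptl4 at 1.00 ± 0.172 and 52.6 ± 7.16 FPKM and Cd36, the fatty acid transporter of macrophages and muscle, at 161 ± 3.37 with LPS and 5.67, 0.106 and 0.401 FPKM in the 3 LPS-MIC-1 libraries. Of 9 mitochondrial DNA maintenance genes 3 rose and 1 fell, with Ssbp1, the single-strand binding protein, at 9.97 ± 1.31 and 26.5 ± 6.22 FPKM.

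Against control, LPS-MIC-1 in C2C12 had 12 of 19 partners lower and 0 higher (median -1.48), where 30.5% of all genes were lower and 29.9% higher. It had 4 oxidative targets higher and 4 lower (median 0.13), 5 PPAR targets higher and 4 lower (median -0.04), and 1 mitochondrial DNA maintenance gene in each direction (median 0.08), a count that moved between 0 and 3 as single libraries were left out. Mb is 1 of the 4 oxidative targets higher and had to differ, as it passed the filter only through LPS-MIC-1. After quantile normalization the oxidative targets were 4 higher and 10 lower with a median of -0.31, so the direction of that list depended on the scaling. Leaving out LPS-MIC-1 replicate 1, the C2C12 library of that group with the most macrophage RNA, gave 4 higher and 3 lower.

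**Figure D5:**
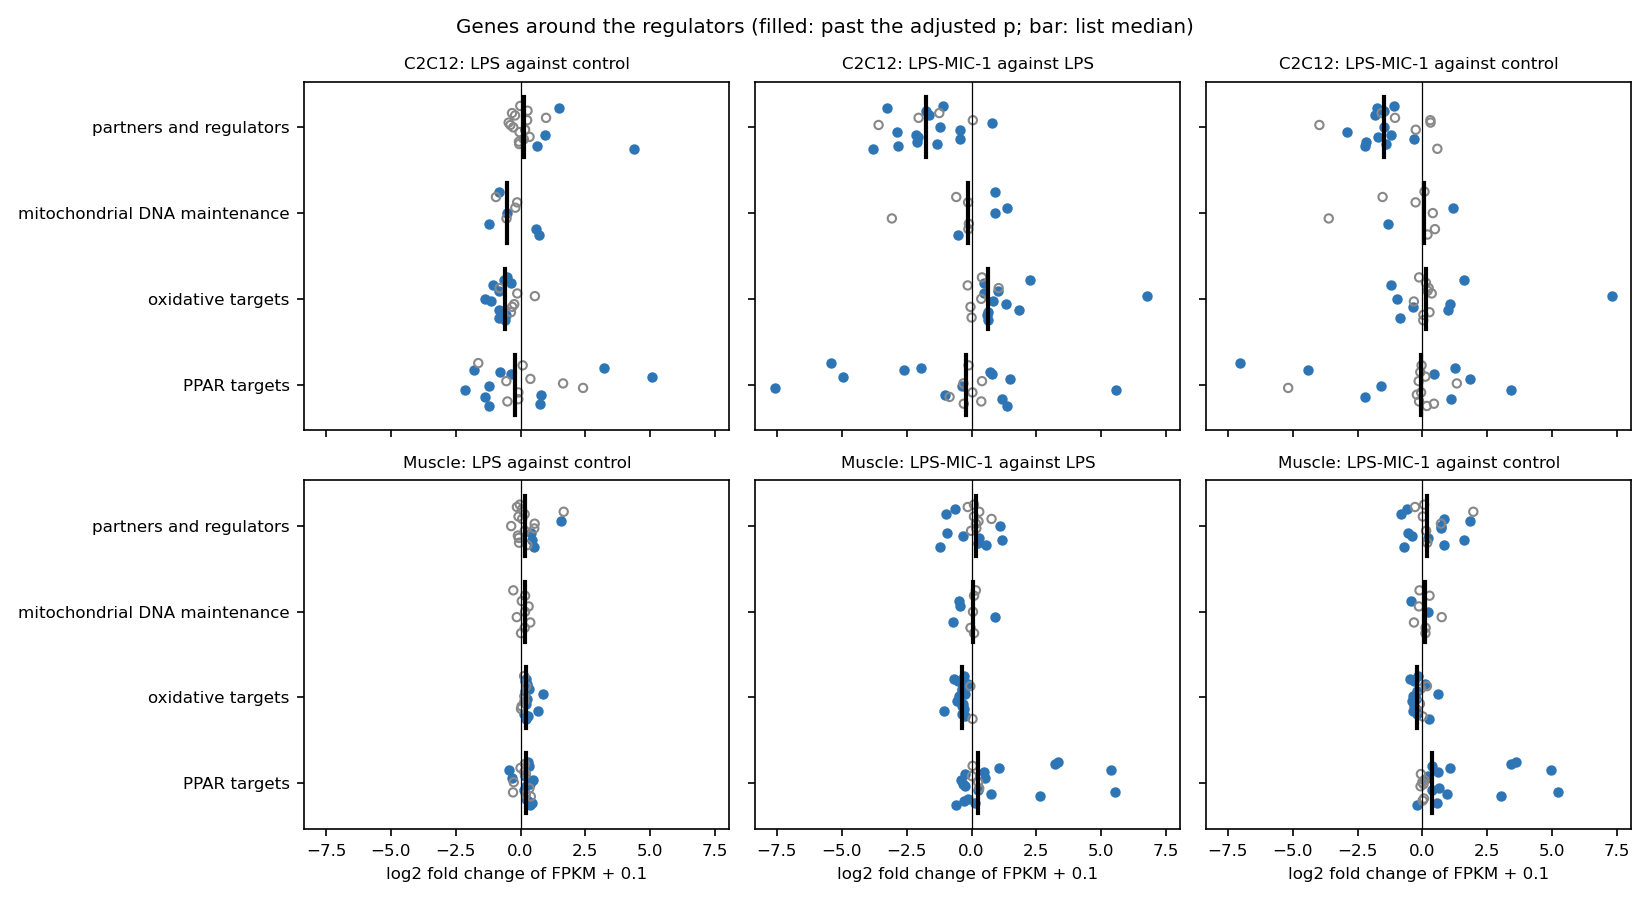
Log2 fold changes of FPKM + 0.1 for the genes of 4 lists in 3 comparisons of each experiment, with C2C12 in the upper row and muscle in the lower. Filled points passed the adjusted p (0.001 in C2C12, 0.05 in muscle), and black bars are list medians. With LPS-MIC-1 against LPS in muscle the oxidative targets sit left of 0 with a median of -0.35, while the PPAR targets include Pdk4 and Angptl4 beyond 5.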

How the data were processed

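RNA was sequenced from 18 mouse libraries, 9 per experiment. Per the labels, the authors quantified reads with kallisto (build mm9 named in the submitters' processing notes), and deposited FPKM per gene for each library. They also deposited DESeq2 tables, whose base mean (the authors' normalized signal: counts after size-factor scaling, as a mean of 6 libraries) was read in 5 of 6 tables for depth alone. Their fold changes and p-values were not used. Total counts per library are unknown, since FPKM keeps none, so no counting interval is given.

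Groups came from sample labels. The muscle file has 9 unnamed columns of per-sample values, which were not used. FPKM + 0.1 was taken to log2 and fitted with limma 3.58.1 in R 4.3.3 (empirical Bayes with trend, 3 groups together, each experiment apart) over genes with a mean FPKM over 1, with Benjamini-Hochberg adjustment. The fit was tested on simulated data. Replicates differed in at least 13941 genes and correlated at 0.968 or more on the log2 scale. No sequences are shown, as no sequence tables were used here.

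Named genes are the 10 regulators, those with the largest differences per list (2 for LPS-MIC-1 against LPS, 1 for LPS against control), 2 nearest profiles per called regulator and the most abundant markers. Lcn2, Saa3, Il1b, Tnf, Ucp2, Ucp3, Acot2, Plin2, Acaa2, Acadl, Acadm, Acadvl, Cpt1b, Cpt2, Hadhb, Pprc1, Rxrg, Sirt3 and Prkaa2 were named after their values were seen. The regulators and lists were chosen with earlier results of these data known. Alternatives covered the pseudocount, the FPKM filter, scaling, variance trend, libraries fitted, a replicate block and each library left out.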

Additional observations from a re-analysis of the deposited data

Results flagged for a closer look

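Genes are given here because the same 2 groups did not overlap in either experiment and lay in opposite order in C2C12 and in muscle. The difference between the experiments was not tested, since the tables were normalized separately, and the C2C12 libraries labelled control and LPS carried macrophage markers. Only genes named in the report were screened one by one. Of the 61 list genes tested in both experiments, 22 lay in opposite order in this way with LPS against control, 32 with LPS-MIC-1 against LPS and 18 with LPS-MIC-1 against control, so the pattern is common in these lists.

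Among the regulators this was so for Nrf1, with LPS-MIC-1 against LPS at -0.44 (log2) in C2C12 and 1.02 in muscle, and against control at -0.47 and 0.88. Its muscle level was under 1.3 FPKM in every library.

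With LPS against control the log2 fold changes in C2C12 and muscle were 5.06 and -0.34 for Fabp4, -1.36 and 0.14 for Idh3a, and -0.64 and 0.19 for Slc25a4. They were -0.39 and 1.63 for Nrip1, a corepressor of the receptors, and -1.22 and 0.37 for Peo1. Nrip1 averaged only 0.341, 1.11 and 1.16 FPKM in muscle control, LPS and LPS-MIC-1. It did not pass the filter on mean FPKM there and was not tested.

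With LPS-MIC-1 against LPS the fatty acid handling genes gave -7.59 and 0.25 (Cd36), 1.47 and -0.42 (Fabp3), and -4.95 and 0.52 (Fabp4). Oxidative genes gave 0.37 and -0.50 (Idh3a), 6.75 and -0.27 (Mb), and 2.24 and -0.67 (Slc25a4). Lpin1 gave -2.11 and 1.16, Polg -3.07 and 0.89, and Ssbp1 1.38 and -0.45.

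With LPS-MIC-1 against control the pairs were -5.18 and 0.38 for Cd36, -2.17 and 1.60 for Lpin1, -3.97 and 1.88 for Nrip1, -3.61 and 0.74 for Polg, and 1.60 and -0.48 for Slc25a4. Nrip1 was listed at 0 in 2 of the 3 C2C12 LPS-MIC-1 libraries.

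Genes named after their values were seen included several of fatty acid oxidation. With LPS against control their C2C12 and muscle values were -1.21 and 0.38 for Acaa2, -0.51 and 0.30 for Acadm, -0.0881 and 0.21 for Acadvl, -0.55 and 0.36 for Cpt2, and -0.80 and 0.21 for Hadhb. For LPS-MIC-1 against LPS they were 1.37 and -0.60 for Acaa2, -0.30 and 0.14 for Acadl, 0.38 and -0.30 for Acadm, 1.18 and -0.15 for Acadvl, 0.40 and -0.32 for Cpt2, and 0.71 and -0.27 for Hadhb. In that comparison Acot2 gave -1.01 and 2.64, Plin2 -1.96 and 1.07, and Ucp2 -5.41 and 3.24. Against control Acot2 gave -0.22 and 3.03, and Ucp2 -7.04 and 3.41.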

How the results depend on the processing

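The log2 fold changes of the regulators kept direction and call in 521 of 531 alternative fits. Many of these fits could not change the direction, because filter, variance trend, block or an unrelated library leave the group means as they are. Most comparisons also had no call to lose, so this count is no measure of robustness. The 2 calls lost were those of Ppargc1a in muscle with LPS-MIC-1 against LPS, at a pseudocount of 1 (-0.90, limma adjusted p = 0.00364) and without LPS-MIC-1 replicate 1 (-0.99), which put the regulators called there at 1 in place of 2. The reversals were of values near 0, namely Tfam in C2C12 with LPS-MIC-1 against control after quantile normalization (0.043), Nrf1 in C2C12 with LPS against control without control replicate 2 (0.0056) or LPS replicate 3 (0.0045, in a range of -0.0657 to 0.0056 with single libraries left out), and Ppard in muscle with LPS-MIC-1 against LPS after quantile normalization (-0.11) and without LPS replicate 2 or 3 or LPS-MIC-1 replicate 1 or 2 (-0.00069, -0.0072, -0.025 and -0.026, in a range up to 0.066).

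Without the FPKM filter, 1 regulator was called in C2C12 with LPS-MIC-1 against LPS in place of 0 (Ppara). In muscle Nrf1 was called in that comparison (1.02, limma adjusted p = 0.0276) in addition to the 2 called with the filter. The genes called in muscle were 2158 in place of 1431 with LPS-MIC-1 against LPS and 2240 in place of 1464 against control. With a mean FPKM over 5, Ppargc1a and Ppara were not tested, so 0 regulators were called in muscle in both comparisons, and 57, 656 and 677 genes were called in place of 118, 1431 and 1464. At a pseudocount of 1 the muscle count for LPS against control was 71. Leaving out single libraries gave 1 to 2 regulators called in muscle with LPS-MIC-1 against LPS.

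Quantile normalization moved the median of all muscle genes by -0.107 with LPS-MIC-1 against LPS and -0.110 against control. It turned 916 higher and 515 lower calls into 781 and 667 in the first. Same-numbered libraries showed no shared deviation, with correlations of -0.0757 to 0.0573 in C2C12 and -0.0540 to 0.0823 in muscle. Other pairs gave -0.0910 to 0.121 and -0.0745 to 0.0811. The labels do not say whether libraries were paired, and low correlations cannot exclude it. With the replicate number as a block, 2056, 5227 and 4472 genes were called in C2C12 (2275, 5428 and 4708 without it) and 115, 1431 and 1463 in muscle, and the regulators called were 1, 0, 0, 0, 2 and 1, as without it.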
